A study of Danio rerio with 18 samples.

Results

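Anterior brain was set against posterior brain in adult wild-type zebrafish, to describe how gene expression differs between these parts when the melanopsin genes are intact. The comparison uses 6 of the 18 libraries of the series, chosen by their labelled tissue and genotype: 3 of anterior brain WT and 3 of posterior brain WT. Every library was made from the same brain part of 3 fish of the Tübingen strain, pooled, at an age of about 1.5 years, and the spread between libraries is therefore that between pools. The anterior part held the telencephalon without the olfactory bulbs, the pineal, and some of the epithalamus, thalamus and posterior tuberculum. The posterior part held midbrain and hindbrain with the cerebellum, the hypothalamus, the pretectum, the habenula and the rest of the thalamus and posterior tuberculum, without the pituitary. All fish had been kept under blue light in a light-dark cycle and were sampled in the light phase. The same parts of opn4 dko fish, in which the genes opn4.1 and opn4xb each carry a frameshifting deletion, gave 6 further libraries that serve below as a second measurement of the contrast.

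The vertebrate brain is divided along its axis by transcription factors that are switched on in the embryo and often stay on in adult neurons. EMX and TBR1 genes mark the telencephalon, PAX, EN and IRX genes the midbrain and its borders, and Hox genes the hindbrain. On top of this, regions differ in their transmitters, neuropeptides, receptor subunits and share of myelinated fibres, and in teleost fish many of these genes exist in a pair of copies from a genome duplication.

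The 6 libraries held between 3322484 and 6451994 counts, so that 3 counts correspond to 0.465 to 0.903 CPM. Values below are counts scaled to TMM library sizes and expressed as CPM, the usual unit of reads relative to the size of a library, FDR is the Benjamini-Hochberg adjusted p of edgeR's quasi-likelihood test with a cutoff of 0.05, and log2 fold changes are anterior over posterior. CPM are not divided by gene length, so levels are compared between libraries and not between genes. Where the 3 libraries of a part held 0 counts, a fold is given as a lower bound against 3 counts over that part, and where they held 1 to 3 counts as a ratio with its 95% counting interval (exact binomial, counting error only). Correlations of log CPM between libraries were 0.933 to 0.936 within anterior brain, 0.912 to 0.932 within posterior brain and 0.808 to 0.846 between the parts. Replicate 1 of both parts was sequenced on lane 6 of the flow cell, whereas anterior replicates 2 and 3 were on lane 5 and posterior replicates 2 and 3 on lane 4. Lane and part cannot be told apart in those 4 libraries. The pair on lane 6 is the first value of each part wherever 3 values are given below.

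Of 15399 genes tested, 4202 differed between the parts, which is 27.3%. In anterior brain 2105 genes were higher (13.7% of those tested), and in posterior brain 2097 (13.6%). Libraries of the parts did not overlap for 41.3% of the genes tested and for 4087 of the 4202 called. A change of at least 2-fold was found for 1080 genes higher in anterior brain and 1207 higher in posterior brain. Changes of at least 8-fold were fewer in the first direction, with 92 genes against 249. Scaling to actb1 instead of TMM moved the median of all genes by -0.14 on the log2 scale and left 36.7% of the calls higher in anterior brain, in place of 50.1%. As these are bulk libraries, more cells of a type and more RNA per cell cannot be told apart.

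**Figure D1:**
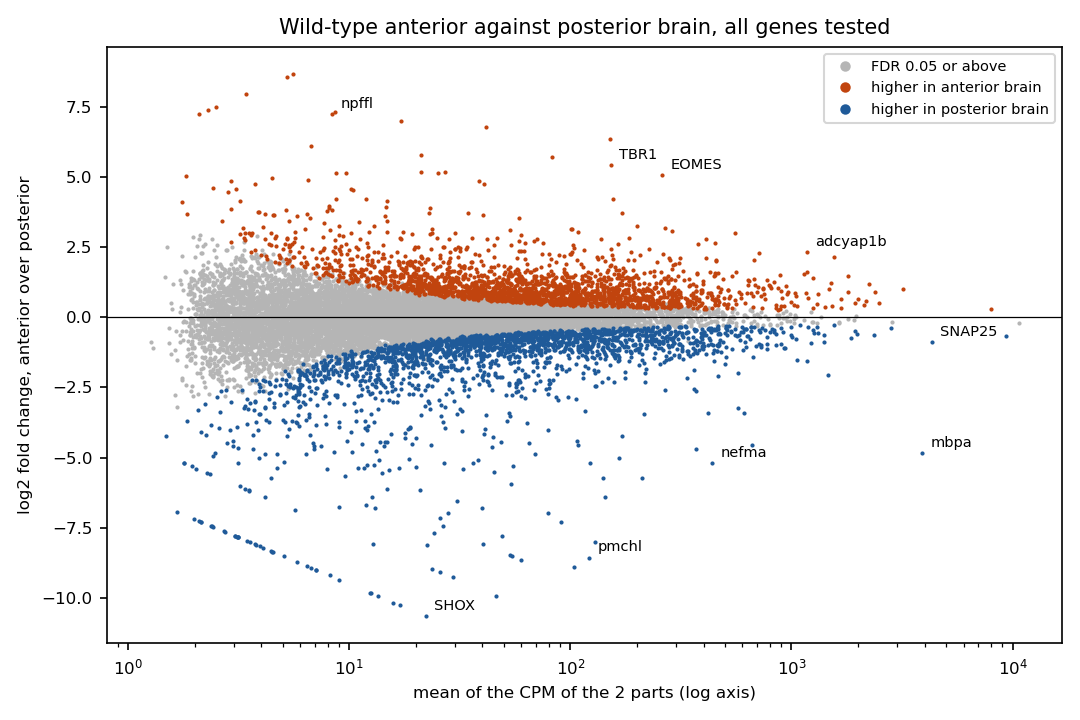
Each point is 1 of the 15399 genes tested, by the mean of the CPM of the parts (log axis) and its log2 fold change, anterior over posterior, in wild-type fish. Orange points (2105) are higher in anterior and blue points (2097) in posterior brain at an FDR below 0.05, and the lines of points at the lower left are genes with 0 counts in 1 part.

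The labelled parts were set beside their markers. A marker with few or 0 counts in 1 part passed the filter on low counts, which a gene needed to be tested, only through the other part. The direction of such a marker was thus fixed and is no check of the labels. Gene names come from a table that gives many zebrafish genes the human name without the letter of the copy, so that a name in capitals can stand for either copy, and identifiers are given where 2 genes share a name. TBR1, which marks glutamatergic pallial neurons, had 304, 324 and 267 CPM in anterior libraries, against 4.09, 12.4 and 2.09 CPM in posterior libraries. All anterior libraries lay far above all posterior ones (log2 fold change 5.44, standard error 0.32, FDR = 2.10e-10). emx3 had 34.0, 55.0 and 35.2 CPM in anterior libraries, against 1.63, 0.547 and 0 CPM in posterior libraries, and was likewise apart between the parts (log2 fold change 5.79, standard error 0.53, FDR = 9.82e-08). Of the anterior markers reported here, emx3, TBR1, both NEUROD6 and both DLX2 genes were higher in anterior brain, DLX5 had 0 counts in all 6 libraries, and the 2 genes named EOMES went opposite ways.

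Apart from ZIC1 and cbln12, markers of the posterior part had few or 0 counts in anterior libraries. EN2 (ENSDARG00000026599), a homeobox gene of the midbrain-hindbrain boundary, had 0.235, 0 and 0 CPM in anterior libraries, against 62.4, 49.4 and 64.4 CPM in posterior libraries. With 1 count in all anterior libraries together, the ratio of posterior to anterior was 855 (interval 153 to 33802). ZIC1, of cerebellar granule cells and dorsal midbrain, had 75.8, 118 and 122 CPM in anterior libraries, against 602, 616 and 651 CPM in posterior libraries (log2 fold change -2.56, standard error 0.16, FDR = 3.92e-10). It was thus present in both parts and higher in the posterior one. HOXB3 had 0, 0.159 and 0.457 CPM in anterior libraries, against 13.9, 21.7 and 35.5 CPM in posterior libraries, a ratio of 115 (interval 39.0 to 561). HOXB4 had 0 counts in all 6 libraries, and the other posterior markers that were tested (the second EN2, both PAX7 genes, 1 PAX2 and cbln12) were called higher in posterior brain. Apart from ZIC1 and cbln12, the tested posterior markers passed the filter on low counts only through the posterior libraries. Their direction was thus fixed by the filter.

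Pineal markers were low in the part labelled as holding the pineal, the anterior one. The gene asmt, which makes the last step of melatonin synthesis, had 3, 7 and 6 counts in anterior libraries, against 2, 1 and 0 in posterior libraries. The pineal factor otx5 had 11, 0 and 1 counts in anterior libraries and 0 in each posterior library. aanat2, the pineal N-acetyltransferase, had 22, 18 and 16 counts in anterior libraries, against 14, 1 and 0 in posterior libraries, and did not pass the test (FDR = 0.333), although it did without posterior replicate 1 (FDR = 0.0318). Over the 42 genes of the pineal list the sum, as CPM of plain library totals without TMM, was 62.3 to 79.2 CPM in anterior libraries and 63.9 to 91.5 CPM in posterior libraries, so the ranges overlapped, and 9 of the 42 were at 0 in all anterior libraries. Of the 9 that could be tested, 0 were higher in anterior brain and 1, tph1a, in posterior brain (11.1%, near the 13.6% of all genes). The first count became 1 without posterior replicate 1 or 3, and the second 2 without posterior replicate 1 and 0 without posterior replicate 2 or 3. In the opn4 dko pools the same list summed, on that scale, to 623.8 to 1319 CPM in anterior libraries, against 59.6 to 407 CPM in posterior libraries.

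Genes of the parts left out of the dissection were summed as well. Those of the pituitary list summed to 4.29 to 10.6 CPM in anterior and 14.98 to 108 CPM in posterior libraries. The highest sum, in posterior replicate 3, rested mostly on prl2, a prolactin-like hormone gene, which had 0, 1.11 and 0.685 CPM in anterior libraries, against 3.54, 17.0 and 68.0 CPM in posterior libraries. It thus varied widely among the posterior pools, with replicate 3 the highest, and it and POMC were the 2 genes of the list that could be tested. Of the 12 genes, 2 were at 0 in all 6 libraries, gh1 was at 0 except for replicate 3 of posterior brain, and POMC, which hypothalamic neurons also express, had 6.34, 2.70 and 3.198 CPM in anterior libraries, against 11.4, 23.7 and 30.7 CPM in posterior libraries (log2 fold change -2.44, standard error 0.47, FDR = 5.67e-04). Olfactory list genes summed to 140.0 to 203 CPM in anterior and 288 to 330.1 CPM in posterior libraries, with CALB2, a calcium-binding protein gene of many neurons, among them, and of 3 tested 1 was called in each direction. Retina and lens genes summed to 29.2 to 38.0 CPM in anterior and 13.3 to 29.2 CPM in posterior libraries, with 10 of 21 genes at 0 throughout. The melanocyte gene pmelb was called higher in anterior brain, but not without anterior replicate 1 (FDR = 0.0746). The part of these tissues in the results below was not tested.

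**Figure D2:**
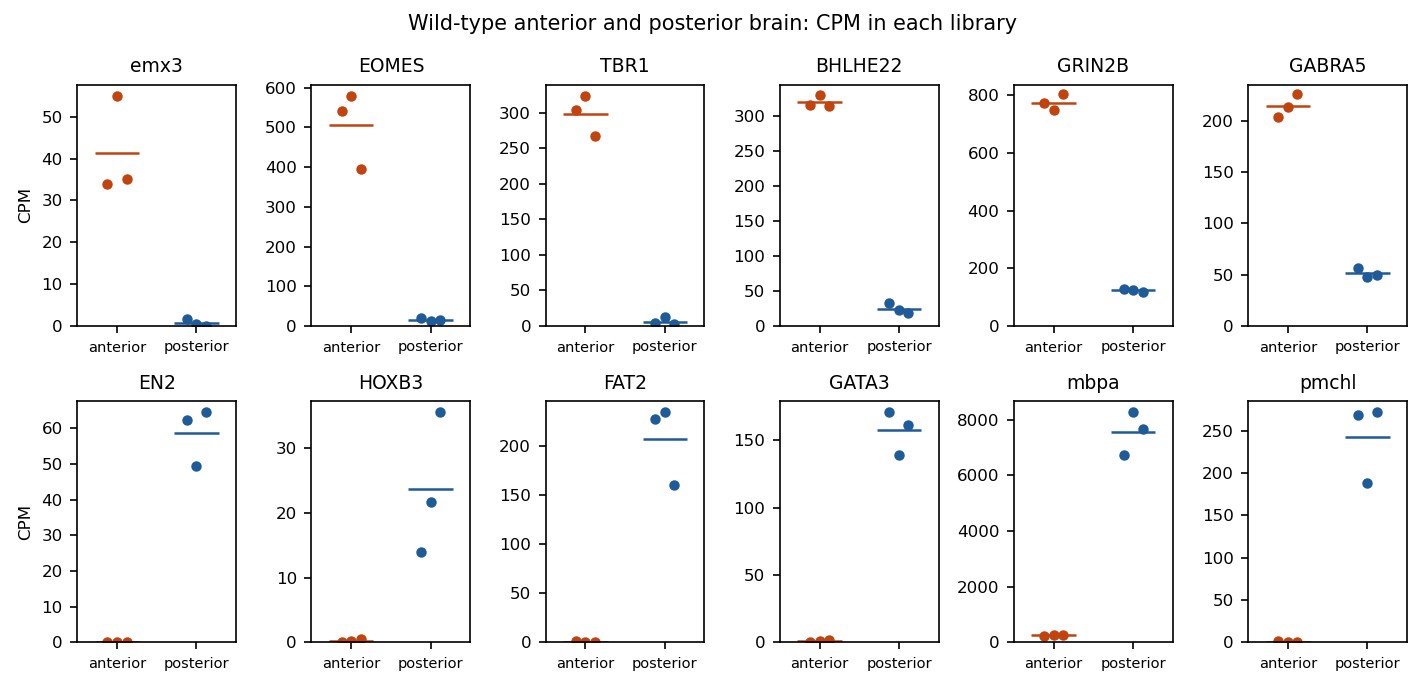
CPM of 12 genes in each of the 3 anterior (orange) and 3 posterior (blue) WT libraries, with the mean as a bar; every axis starts at 0. EOMES is the gene with identifier ENSDARG00000006640 and EN2 the one with ENSDARG00000026599. The 12 genes were picked from those called. In all 12 panels the libraries of the parts do not overlap, as for 4087 of the 4202 genes called and 41.3% of the genes tested.

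Among the genes with the largest fold changes in anterior brain, ordered here by kind, were transcription factors and secreted peptides. To be chosen, a gene had to pass the test without overlap and reach 10 counts or more in every anterior library. LHX8, a factor of cholinergic and GABAergic neurons of the ventral telencephalon in mammals, had 11.3, 24.8 and 15.3 CPM in anterior libraries, against 0.272, 0 and 0 CPM in posterior libraries. Its 1 count in posterior brain gave a ratio of 227.04 (interval 40.4 to 9000.5). PYY, a peptide of the neuropeptide Y family, had 24.6, 43.5 and 33.6 CPM in anterior libraries, against 0.272, 0.365 and 0 CPM in posterior libraries, a ratio of 147 (interval 50.0 to 715). npffl, a precursor of the neuropeptide FF family, had 13.8, 17.6 and 18.3 CPM in anterior libraries, against 0.272, 0 and 0 CPM in posterior libraries, a ratio of 209 (interval 37.2 to 8306). These 3 genes thus had 1 or 2 counts in all posterior libraries together. GPR161, an orphan receptor of the primary cilium, had 74.4, 82.5 and 90.7 CPM in anterior libraries, against 0.817, 0.912 and 0.298 CPM in posterior libraries (log2 fold change 6.80, standard error 0.35, FDR = 3.37e-11). rtn4rl2b, a Nogo receptor homologue, had 121, 211 and 154 CPM in anterior libraries, against 4.63, 1.64 and 3.28 CPM in posterior libraries (log2 fold change 5.74, standard error 0.31, FDR = 5.86e-11), and its copy rtn4rl2a was also higher (log2 fold change 3.05, standard error 0.23, FDR = 6.63e-09). Of the others, TRAF4, ptprq, ENTPD3, arhgap20b and mctp2a had 0 counts in posterior brain, with lower bounds of 48.3, 42.2, 27.9, 18.7 and 17.9-fold. FBLN2 and GEM completed the group, with FBLN2 uneven among the anterior pools at 25.6, 5.72 and 8.45 CPM.

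In posterior brain the largest fold changes were mostly those of transcription factors with few or 0 counts in anterior brain. SHOX, a homeobox gene, had 0 counts in anterior libraries, against 39.5, 44.1 and 49.5 CPM in posterior libraries, which is at least 220.0-fold higher in posterior brain. TFAP2B had 0.235, 0 and 0 CPM in anterior libraries, against 94.5, 77.0 and 106 CPM in posterior libraries, a ratio of 1340.4 (interval 240.1 to 52989.8). en1b, POU4F1, TFAP2E, NKX2-4 and 1 of 2 IRX1 genes had 0 counts in anterior brain and were at least 171, 127, 70.4, 70.0 and 85.5-fold higher in posterior brain. EN2, given above, and the second IRX1 gene belonged to this group too, beside genes of other kinds. FAT2, a giant protocadherin of cerebellar granule cells, had 1.41, 0 and 0 CPM in anterior libraries, against 228, 234 and 161 CPM in posterior libraries (log2 fold change -8.91, standard error 0.42, FDR = 1.59e-11). CASQ2, a calcium store protein best known from muscle, had 0 counts in anterior and 39.8, 18.2 and 22.7 CPM in posterior libraries. pard6ga, a cell polarity gene, was at 0 as well in anterior libraries, with 36.2, 24.99 and 33.7 CPM in posterior libraries. si:ch211-67f24.7 and si:dkeyp-51f2.3 have no described role in the sources used here.

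A second group was chosen by the difference in CPM among genes called without overlap. This favours long and abundant genes and is no order of their levels. The group held genes of the synapse and neurite in anterior brain and of myelin in posterior brain, among others. GPM6A, a membrane glycoprotein of neurites, had 3721, 4209 and 4910.2 CPM in anterior libraries, against 2275, 1955 and 2114 CPM in posterior libraries (log2 fold change 1.02, standard error 0.10, FDR = 3.11e-07). NELL2, a secreted neuronal protein, had 2569.5, 2773 and 2270.4 CPM in anterior libraries, against 597, 545 and 564 CPM in posterior libraries (log2 fold change 2.16, standard error 0.10, FDR = 1.53e-11). adcyap1b, a precursor of the neuropeptide PACAP, had 1792, 2007 and 2066 CPM in anterior libraries, against 416, 368 and 386 CPM in posterior libraries (log2 fold change 2.33, standard error 0.10, FDR = 9.05e-12). In each of these the anterior libraries lay close together, while the lack of overlap was a condition of the choice. The other 7 were SYT1 (the synaptic calcium sensor), atp1a3a (a neuronal sodium pump), basp1, r3hdm1, CLSTN1, KIF1A (a motor of synaptic vesicle precursors) and GRIA2, with log2 fold changes of 1.47, 1.19, 0.92, 1.23, 0.92, 1.62 and 1.41.

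Among those higher in posterior brain, mbpa, which encodes myelin basic protein, had 235, 275 and 280.1 CPM in anterior libraries, against 6736, 8264 and 7648 CPM in posterior libraries (log2 fold change -4.84, standard error 0.11, FDR = 5.30e-16). plp1b, a proteolipid of central myelin, had 80.0, 117 and 116 CPM in anterior libraries, against 936, 1273 and 1135 CPM in posterior libraries (log2 fold change -3.41, standard error 0.16, FDR = 1.08e-11). In each the anterior libraries were all far below the posterior ones. cd59a, a complement regulator, had 55.6, 44.8 and 64.4 CPM in anterior libraries, against 1391, 1206 and 1225 CPM in posterior libraries (log2 fold change -4.54, standard error 0.14, FDR = 7.59e-14). ndrg3a and GGCT were higher in posterior brain as well, with log2 fold changes of -2.07 and -1.57. Smaller changes in abundant genes made up the rest, with SNAP25, a membrane fusion protein of synaptic vesicles, at 3080.1, 3018 and 3041 CPM in anterior and 5774, 5482 and 5438 CPM in posterior libraries (log2 fold change -0.87, standard error 0.08, FDR = 7.63e-08), and CKB, calm1a and atp1a3b with log2 fold changes of -0.64, -0.72 and -1.51.

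**Figure D3:**
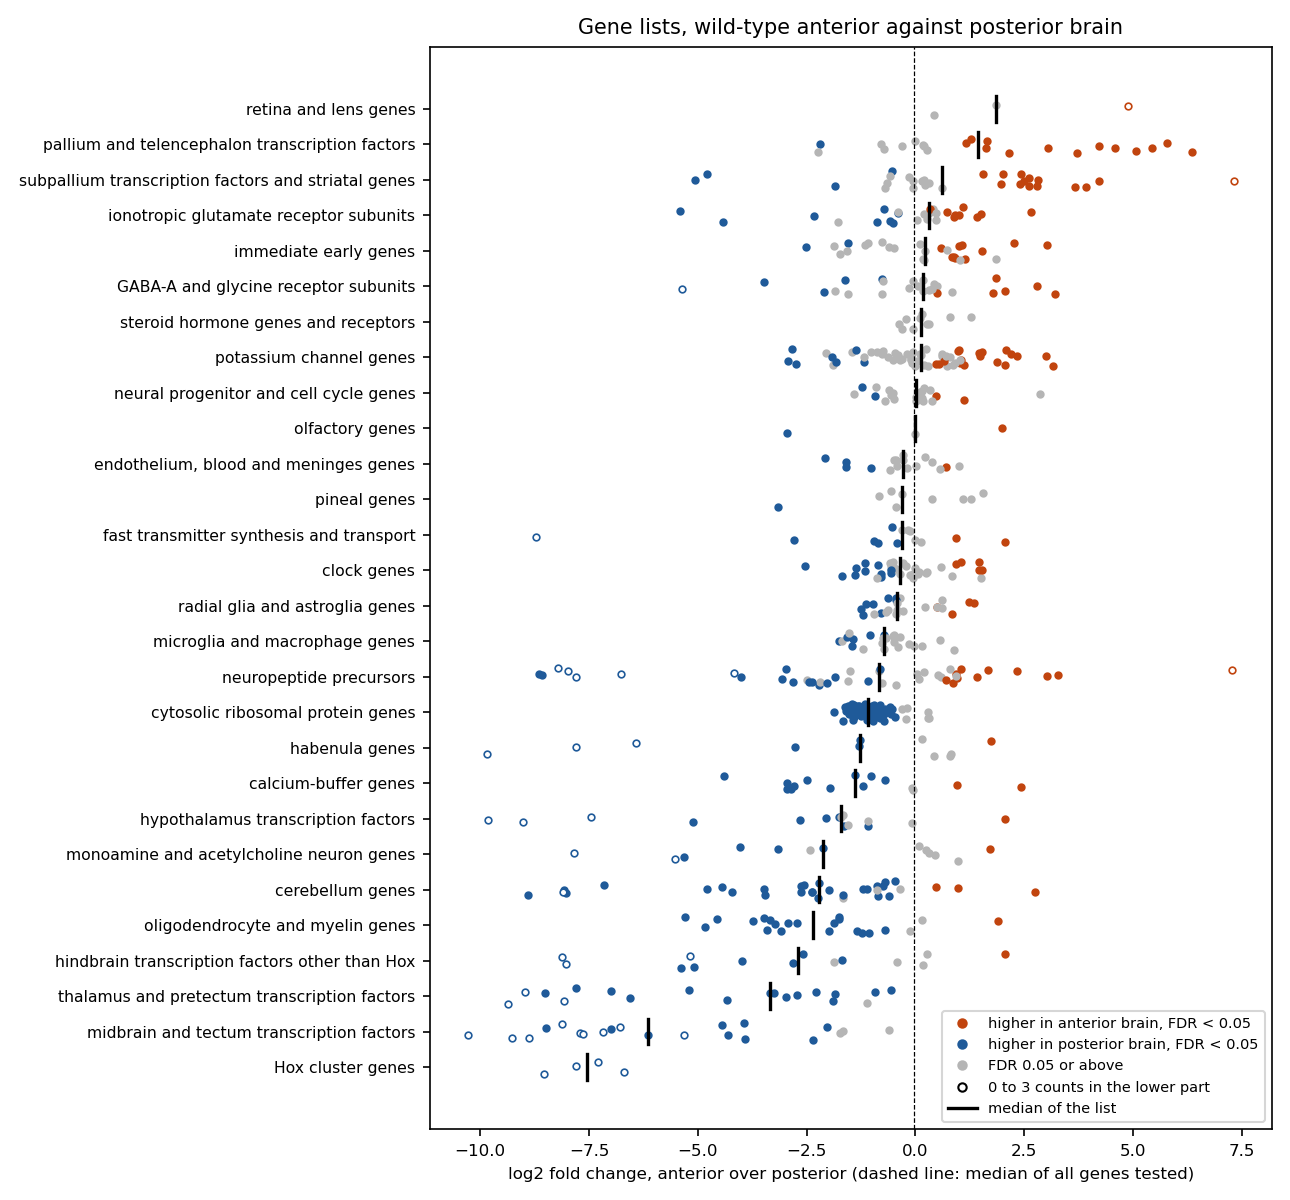
Log2 fold changes, anterior over posterior, of the tested genes of each list with 3 or more of them; a black bar marks the median of a list and the dashed line that of all genes tested (-0.02). Open symbols are genes with 0 to 3 counts in the lower part, whose fitted value is no bound. Pallial genes lie furthest to the right among the lists of brain regions. Hox genes lie furthest to the left, where the filter on low counts fixed their direction.

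Transcription factors of the telencephalon were mostly on the anterior side. This list and those below were chosen with earlier results of these data known. Their shares beside those of all genes are therefore descriptions and no independent check of the parts. The shares also include genes with few or 0 counts in 1 part. Such genes passed the filter on low counts only through the other part, which fixed their direction. Of 22 genes of the pallium list, 13 were higher in anterior brain (59.1%, against 13.7% of all genes), 1 in posterior brain (4.55%, against 13.6%) and 8 did not pass. The median log2 fold change was 1.45. BHLHE22, a factor of cortical projection neurons in mammals, had 316, 329 and 314 CPM in anterior libraries, against 32.1, 22.6 and 17.9 CPM in posterior libraries (log2 fold change 3.72, standard error 0.18, FDR = 2.10e-11). EOMES (ENSDARG00000006640), of intermediate progenitors and pallial neurons, had 543, 579.7 and 395 CPM in anterior libraries, against 19.6, 12.4 and 13.7 CPM in posterior libraries (log2 fold change 5.07, standard error 0.20, FDR = 1.29e-12). The second EOMES gene (ENSDARG00000104243) had 3.75, 8.26 and 2.06 CPM in anterior libraries, against 21.0, 26.6 and 18.2 CPM in posterior libraries (log2 fold change -2.19, standard error 0.46, FDR = 0.0012), so the copies were on opposite sides. That copy was the 1 higher in posterior brain, a count that became 2 with upper quartile scaling and without anterior replicate 3 or posterior replicate 1. The subpallium list, of striatal and GABAergic neurons, held 29 tested genes (median 0.62). Of these, 14 were higher in anterior brain (48.3%, against 13.7% of all genes) and 4 in posterior brain (13.8%, near the 13.6% of all genes). LHX6, a factor of migrating interneurons, had 35.7, 51.5 and 42.7 CPM in anterior libraries, against 2.45, 2.19 and 4.17 CPM in posterior libraries (log2 fold change 3.91, standard error 0.36, FDR = 1.02e-07). SP9 had 63.4, 95.2 and 74.2 CPM in anterior libraries, against 9.53, 11.1 and 18.2 CPM in posterior libraries (log2 fold change 2.60, standard error 0.27, FDR = 4.74e-07), and DLX2 and SIX3 were of the same kind, with log2 fold changes of 2.78 and 2.42. On the other side were meis2b (-5.06), the peptide precursor penka (-1.84), FOXP2 and PPP1R1B, the phosphatase inhibitor DARPP-32 of mammalian striatal neurons, which had 2.58, 0.318 and 0 CPM in anterior libraries, against 31.3, 25.9 and 19.4 CPM in posterior libraries (log2 fold change -4.78, standard error 0.67, FDR = 1.97e-05). The call of FOXP2 was lost without any library but posterior replicate 1 (FDR = 0.0737 to 0.14). It was also lost with actb1 scaling (FDR = 0.0877), with no filter on low counts (FDR = 0.062), with over 1 CPM in 2 libraries as the filter (FDR = 0.0544) and with all 18 libraries fitted together (FDR = 0.228).

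Genes listed for the diencephalon were mostly higher in posterior brain, which also held midbrain and hindbrain. Some of them, such as the IRX genes, mark the midbrain and its borders too. Their shares therefore cannot be assigned to the diencephalon. Several, such as GATA3 and IRX3, passed the filter on low counts only through the posterior libraries, which fixed their direction. Of 19 tested genes of thalamus and pretectum, 18 were higher in posterior brain (94.7%, against 13.6% of all genes) and 0 in anterior brain (median -3.34). GATA3, of GABAergic neurons, had 0.469, 1.27 and 1.83 CPM in anterior libraries, against 171, 139.5 and 162 CPM in posterior libraries (log2 fold change -6.998, standard error 0.28, FDR = 2.38e-12). TCF7L2, a Wnt effector and thalamic marker, had 17.6, 23.8 and 20.8 CPM in anterior libraries, against 203, 247 and 184 CPM in posterior libraries (log2 fold change -3.34, standard error 0.18, FDR = 6.92e-11). IRX3 had 0.939, 0 and 0 CPM in anterior libraries, against 103, 96.9 and 126 CPM in posterior libraries (log2 fold change -8.51, standard error 0.46, FDR = 6.58e-11), and IRX2 and IRX5 had log2 fold changes of -6.56 and -7.81.

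Of 15 tested hypothalamic factors, 9 were higher in posterior brain (60.0%, against 13.6% of all genes) and 1, FEZF1, in anterior brain (6.67%, against 13.7%), with a median of -1.71. Too few counts to be tested were found for 12 of 27. FOXB1 had 5.63, 0 and 1.37 CPM in anterior libraries, against 64.8, 77.2 and 79.6 CPM in posterior libraries (log2 fold change -5.11, standard error 0.55, FDR = 7.68e-07). OTP, which specifies neuroendocrine neurons, is named for 2 genes, and ENSDARG00000058379 had 4.93, 3.81 and 2.51 CPM in anterior libraries, against 18.5, 22.1 and 31.0 CPM in posterior libraries (log2 fold change -2.66, standard error 0.41, FDR = 6.39e-05). The other, ENSDARG00000014201, was at 35.2, 28.1 and 30.4 CPM in anterior and 72.4, 60.4 and 68.0 CPM in posterior libraries, so that both parts held it, and its call was lost when all 18 libraries were fitted together (FDR = 0.0539). FEZF1 had 20.6, 19.2 and 21.5 CPM in anterior libraries, against 8.44, 3.47 and 2.98 CPM in posterior libraries (log2 fold change 2.05, standard error 0.44, FDR = 0.00146).

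Habenular genes were higher in posterior brain for 6 of the 11 tested (54.5%, against 13.6% of all genes) and in anterior brain for 1 (9.09%, against 13.7%), with a median of -1.28. POU4F1 (Brn3a) had 0 counts in anterior libraries and 13.6, 29.9 and 31.3 CPM in posterior libraries. gng8, a G protein subunit of the habenula, had 0.235, 0 and 0 CPM in anterior libraries, against 6.81, 9.12 and 8.64 CPM in posterior libraries, a ratio of 124 (interval 21.8 to 4949.6). kiss1, the kisspeptin of the zebrafish habenula, had 0 counts in anterior brain and 4.36, 6.75 and 7.15 CPM in posterior libraries, at least 30.6-fold more. All 3 thus had few or 0 counts in anterior brain and passed the filter on low counts only through the posterior libraries. Their direction was fixed by the filter, and the share of habenular genes rests in part on such genes. KCTD8, an auxiliary subunit of GABA-B receptors, went the other way and had 143, 140.2 and 148 CPM in anterior libraries, against 45.5, 46.1 and 37.3 CPM in posterior libraries (log2 fold change 1.73, standard error 0.16, FDR = 1.57e-07).

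Of 21 tested midbrain factors, 18 were higher in posterior brain (85.7%, against 13.6% of all genes) and 0 in anterior brain. The median was -6.16, or -4.71 with genes at 0 set to their bound. Genes with few or 0 counts in anterior libraries, such as EN2, POU4F2 and DMBX1, passed the filter on low counts only through the posterior ones. Their direction was thus fixed by the filter, and the share is no result about midbrain factors as a group. POU4F2, of tectal and retinal projection neurons, had 0.939, 0 and 0 CPM in anterior libraries, against 106, 115 and 96.9 CPM in posterior libraries (log2 fold change -8.48, standard error 0.45, FDR = 6.44e-11). DMBX1 had 0.704, 0 and 0 CPM in anterior libraries, against 51.2, 50.3 and 42.9 CPM in posterior libraries, a ratio of 242 (interval 82.4 to 1176). PAX7 (ENSDARG00000100398), of the tectum, had 0.704, 0 and 0.685 CPM in anterior libraries, against 59.1, 63.7 and 42.9 CPM in posterior libraries (log2 fold change -6.99, standard error 0.49, FDR = 3.41e-09). otx2b, whose embryonic expression ends at the midbrain-hindbrain boundary, had 6.57, 4.45 and 1.599 CPM in anterior libraries, against 88.0, 93.0 and 96.9 CPM in posterior libraries (log2 fold change -4.45, standard error 0.32, FDR = 3.78e-09) and was low but not absent in anterior brain.

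Of 33 tested cerebellar genes, 27 were higher in posterior brain (81.8%, against 13.6% of all genes) and 3 in anterior brain (9.09%, against 13.7%), with a median of -2.22. ALDOC (ENSDARG00000057661), which encodes the Purkinje cell antigen zebrin, had 2.82, 0 and 0.457 CPM in anterior libraries, against 239, 203 and 328 CPM in posterior libraries (log2 fold change -8.03, standard error 0.42, FDR = 4.24e-11). A second ALDOC gene (ENSDARG00000019702) was at 1704, 1600.3 and 1406 CPM in anterior and 2706, 2251 and 2179 CPM in posterior libraries (log2 fold change -0.60, standard error 0.10, FDR = 2.04e-04). One gene was thus low in the anterior part and the other well counted in both. The granule cell factor barhl1a had 0.235, 0.636 and 0 CPM in anterior libraries, against 49.8, 62.2 and 40.8 CPM in posterior libraries, and BARHL1 had 0.939, 0 and 0 CPM in anterior libraries, against 83.9, 93.9 and 62.3 CPM in posterior libraries. ZIC2 and ZIC5 had log2 fold changes of -2.64 and -3.46. cbln12, a cerebellin, had 24.4, 13.8 and 14.4 CPM in anterior libraries, against 381, 305 and 286 CPM in posterior libraries (log2 fold change -4.22, standard error 0.21, FDR = 2.01e-11). skor2, of Purkinje cells, had 0 counts in anterior brain and 7.63, 5.65 and 9.24 CPM in posterior libraries. Of those higher in anterior brain, slc1a6, known as the glutamate transporter of mammalian Purkinje cells, had 88.9, 95.4 and 119.5 CPM in anterior libraries, against 13.6, 14.2 and 17.9 CPM in posterior libraries (log2 fold change 2.74, standard error 0.22, FDR = 1.43e-08), and another was GRID2IP (0.98).

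Hindbrain factors other than Hox were higher in posterior brain for 9 of the 14 tested (64.3%, against 13.6% of all genes) and in anterior brain for 1, PRDM8 (7.14%, against 13.7%). The median was -2.70, and 22 of 36 were too low to test. MEIS1, a Hox cofactor, had 25.6, 19.9 and 18.5 CPM in anterior libraries, against 125, 139 and 188 CPM in posterior libraries (log2 fold change -2.82, standard error 0.20, FDR = 4.28e-09). GSX1 had 0.469, 0 and 1.14 CPM in anterior libraries, against 19.3, 24.4 and 20.6 CPM in posterior libraries (log2 fold change -5.38, standard error 0.66, FDR = 4.58e-06). MEIS1 was thus counted in both parts and GSX1 almost only in the posterior one. PRDM8 had 277, 337 and 266 CPM in anterior libraries, against 93.4, 68.6 and 50.4 CPM in posterior libraries (log2 fold change 2.05, standard error 0.18, FDR = 7.82e-08).

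Of 47 Hox cluster genes in the table, 4 were tested and all 4 were higher in posterior brain, against 13.6% of all genes. With few or 0 counts in anterior libraries, these 4 passed the filter on low counts only through the posterior ones. Their direction was thus fixed by the filter, and the count is no result about Hox genes as a group. The 4 genes belong to paralogue group 3. HOXA3 had 0 counts in anterior libraries and 9.26, 4.92 and 16.1 CPM in posterior libraries. hoxc3a had 0 counts in anterior libraries as well, with 3.27, 5.47 and 9.54 CPM in posterior libraries, and HOXD3 likewise with 5.45, 2.92 and 4.47 CPM. Their lower bounds were 45.8, 29.4 and 20.3-fold. HOXB3, given above, was the only one of the 4 with any count in anterior brain. Without anterior replicate 1 or 3, 7 were called.

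Neuropeptide precursors fell on both sides. Of 43 tested, 11 were higher in anterior brain (25.6%, against 13.7% of all genes), 18 in posterior brain (41.9%, against 13.6%) and 14 did not pass (median -0.83). The anterior set included npffl and PYY, described above. gnrh3, the gonadotropin-releasing hormone of the terminal nerve, had 23.7, 12.6 and 12.11 CPM in anterior libraries, against 0.817, 0.547 and 3.87 CPM in posterior libraries (log2 fold change 3.27, standard error 0.65, FDR = 7.52e-04). NPY had 142, 198 and 195 CPM in anterior libraries, against 64.3, 81.5 and 52.8 CPM in posterior libraries (log2 fold change 1.42, standard error 0.18, FDR = 6.21e-06), and its relative pyya had 95.5, 71.2 and 89.6 CPM in anterior libraries, against 22.3, 18.1 and 41.1 CPM in posterior libraries (log2 fold change 1.67, standard error 0.26, FDR = 6.47e-05). All 3 had counts in both parts and were higher in the anterior one. adcyap1b, described above, had a second gene named ADCYAP1 with the reverse pattern, which had 0.469, 0 and 0 CPM in anterior libraries, against 15.3, 14.4 and 23.5 CPM in posterior libraries, a ratio of 128 (interval 34.9 to 1061). PENK and penka, the enkephalin precursors, also differed in direction: PENK had 130.5, 102 and 159 CPM in anterior libraries, against 73.8, 53.6 and 60.5 CPM in posterior libraries (log2 fold change 1.06, standard error 0.19, FDR = 2.40e-04), and penka had 46.9, 35.3 and 37.5 CPM in anterior libraries, against 161, 104 and 163 CPM in posterior libraries (log2 fold change -1.84, standard error 0.20, FDR = 7.85e-07). The call of PENK was lost when all 18 libraries were fitted together (FDR = 0.0619). NXPH1 and scg2b were higher in anterior brain by 0.95 and 0.70 on the log2 scale.

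The posterior set included peptides of the hypothalamus and brainstem. pmchl, a melanin-concentrating hormone gene that controls colour and feeding, had 2.11, 0 and 0 CPM in anterior libraries, against 268, 188 and 272 CPM in posterior libraries (log2 fold change -8.57, standard error 0.44, FDR = 3.08e-11). rln3a, a relaxin family peptide of brainstem and midbrain neurons, had 0.939, 0 and 0 CPM in anterior libraries, against 120.4, 110.2 and 128 CPM in posterior libraries (log2 fold change -8.65, standard error 0.44, FDR = 3.08e-11). agrp, an appetite peptide of the hypothalamus, had 0 counts in anterior brain and 11.2, 2.55 and 10.7 CPM in posterior libraries, at least 36.2-fold more. npvf had 0 counts in anterior brain too, and 6.54, 7.48 and 6.56 CPM in posterior libraries, at least 34.6-fold more. HCRT, the hypocretin precursor, had 0, 0 and 0.685 CPM in anterior libraries, against 4.90, 4.92 and 2.98 CPM in posterior libraries, a ratio of 21.9 (interval 7.11 to 109). It was called at an FDR of 0.0155 but not without anterior replicate 1 or 2 or posterior replicate 1 or 2 (FDR = 0.0644 to 0.085). Nor was it called with all 18 libraries fitted together (FDR = 0.0852). CCK and npb passed as well: CCK had 5.87, 7.79 and 0.685 CPM in anterior libraries, against 34.3, 49.6 and 39.6 CPM in posterior libraries (log2 fold change -3.06, standard error 0.46, FDR = 4.78e-05), and npb had 12.202, 9.54 and 3.66 CPM in anterior libraries, against 55.0, 55.3 and 70.3 CPM in posterior libraries (log2 fold change -2.82, standard error 0.33, FDR = 2.37e-06).

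Peptides that did not pass included CRH, the stress hormone releaser, at 43.4, 32.1 and 36.6 CPM in anterior and 29.4, 30.8 and 50.1 CPM in posterior libraries (log2 fold change 0.03, standard error 0.26). Whether oxt, the fish oxytocin gene, passed depended on the fit: it had 489, 51.6 and 196 CPM in anterior libraries, against 374, 557 and 368 CPM in posterior libraries, with anterior pools that spread widely and replicate 1 among the posterior values. Its log2 fold change was -0.83 (standard error 0.43, FDR = 0.172), and without anterior replicate 1 it was -1.81 (FDR = 0.000842). It also passed with actb1 scaling (-1.09, FDR = 0.00757) and with the lane 6 covariate, an alternative chosen after seeing the data (-1.16, FDR = 0.0167). With no filter on low counts the log2 fold change was nearly unchanged, at -0.81, but the FDR was 1.27e-08. The counts of oxt in that fit are the same and overlap as before, so this FDR is not taken as support. The neurosecretory precursor vgf, which did not pass, was at 118.7, 200.4 and 213 CPM in anterior and 139, 181 and 184 CPM in posterior libraries.

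Genes for fast transmitters passed in both directions, with GABA and glycine genes on the posterior side and glutamate genes on both. Of 13 tested, 2 were higher in anterior brain (15.4%, near the 13.7% of all genes) and 6 in posterior brain (46.2%, against 13.6%), with a median of -0.30. SLC17A6 (ENSDARG00000001127), a vesicular glutamate transporter, had 462, 454 and 454 CPM in anterior libraries, against 124, 106 and 97.2 CPM in posterior libraries (log2 fold change 2.07, standard error 0.13, FDR = 6.52e-10). SLC17A7, another vesicular glutamate transporter, went the other way and had 79.5, 91.4 and 55.7 CPM in anterior libraries, against 157, 142 and 114 CPM in posterior libraries (log2 fold change -0.86, standard error 0.19, FDR = 0.00148). GAD1, which makes GABA, is named for 2 genes, and ENSDARG00000027419 had 502, 490.3 and 461 CPM in anterior libraries, against 922, 903 and 981 CPM in posterior libraries (log2 fold change -0.95, standard error 0.10, FDR = 9.00e-07), whereas ENSDARG00000093411 had 7.27, 3.02 and 5.94 CPM in anterior libraries, against 33.2, 41.4 and 35.5 CPM in posterior libraries (log2 fold change -2.79, standard error 0.35, FDR = 6.43e-06). SLC6A5, the neuronal glycine transporter, had 0 counts in anterior brain and 9.53, 14.0 and 11.0 CPM in posterior libraries, at least 59.3-fold more. SLC32A1, the vesicular GABA transporter, was called at -0.41 (FDR = 0.0232), and not without anterior replicate 1 or 3 or posterior replicate 2 (FDR = 0.0541, 0.0954 and 0.189). Its call was also lost with actb1 scaling (FDR = 0.0881) and with all 18 libraries fitted together (FDR = 0.0801).

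Genes of cholinergic neurons were higher in posterior brain. CHAT, which makes acetylcholine, had 2.35, 0.636 and 0 CPM in anterior libraries, against 28.9, 37.8 and 51.0 CPM in posterior libraries (log2 fold change -5.32, standard error 0.56, FDR = 6.49e-07). SLC5A7, the choline transporter, had 1.88, 0 and 2.51 CPM in anterior libraries, against 19.6, 23.9 and 24.4 CPM in posterior libraries (log2 fold change -4.03, standard error 0.65, FDR = 9.42e-05). SLC18A3, the vesicular transporter, had 0 counts in anterior brain and 9.26, 6.57 and 2.98 CPM in posterior libraries, at least 31.8-fold more. All 3 genes passed the filter on low counts only through the posterior libraries. Their common direction was thus fixed by the filter and is no result about this transmitter. Serotonin genes followed in part: tph2, the neuronal tryptophan hydroxylase, had 0.235, 0 and 0 CPM in anterior libraries, against 6.26, 2.37 and 4.77 CPM in posterior libraries, a ratio of 62.1 (interval 10.7 to 2498) (FDR = 0.00396), and ddc had 6.34, 3.50 and 4.11 CPM in anterior libraries, against 12.3, 19.7 and 28.6 CPM in posterior libraries (log2 fold change -2.12, standard error 0.44, FDR = 0.00116). Another tryptophan hydroxylase gene, tph1a, had 1, 10 and 0 counts in anterior libraries, against 14, 38 and 26 in posterior libraries. It was called (FDR = 0.023) but not without anterior replicate 1 or 3 or posterior replicate 2 or 3 (FDR = 0.081 to 0.0991). SLC6A4, the serotonin transporter, had an FDR of 0.0568 (0.023 with DESeq2). TH, of dopamine and noradrenaline synthesis, was at 17.4, 21.3 and 18.3 CPM in anterior and 8.17, 20.2 and 25.3 CPM in posterior libraries (FDR = 0.898). slc6a2, a monoamine transporter gene, was the 1 of 13 tested monoamine and acetylcholine genes higher in anterior brain (7.69%, against 13.7% of all genes), whereas 6 were higher in posterior brain (46.2%, against 13.6%). It had 40.8, 34.8 and 51.2 CPM in anterior libraries, against 11.98, 10.2 and 16.4 CPM in posterior libraries (log2 fold change 1.72, standard error 0.29, FDR = 1.38e-04).

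Of 27 tested ionotropic glutamate receptor subunits, 9 were higher in anterior brain (33.3%, against 13.7% of all genes) and 8 in posterior brain (29.6%, against 13.6%; median 0.31). With actb1 scaling the counts were 6 and 7. GRIN2B, the NMDA receptor subunit, had 772, 748 and 803 CPM in anterior libraries, against 127, 125 and 118 CPM in posterior libraries (log2 fold change 2.65, standard error 0.12, FDR = 6.32e-12). GRIN2A had 18.1, 19.1 and 15.1 CPM in anterior libraries, against 93.4, 91.6 and 79.6 CPM in posterior libraries (log2 fold change -2.34, standard error 0.21, FDR = 7.80e-08), and the GRIN2C gene ENSDARG00000078149, of cerebellar granule cells in mammals, had 4.93, 0 and 0 CPM in anterior libraries, against 78.7, 56.9 and 55.7 CPM in posterior libraries (log2 fold change -5.41, standard error 0.65, FDR = 3.58e-06). The NR2 subunits thus differed in direction, GRIN2B to the anterior and these 2 to the posterior side. Among AMPA receptor genes, GRIA2 (ENSDARG00000052765) had 1719, 1770.2 and 1935 CPM in anterior libraries, against 617, 679.6 and 747 CPM in posterior libraries (log2 fold change 1.41, standard error 0.10, FDR = 5.07e-09), GRIA1 had log2 fold changes of 1.51 and 0.99 for its 2 genes, and gria4a of 1.096. For the 2 GRIA3 genes the log2 fold changes were 0.89 (ENSDARG00000037498) and -0.58 (ENSDARG00000032737), so they differed in sign.

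For GABA-A and glycine receptors 6 of 25 tested genes were higher in anterior brain (24.0%, against 13.7% of all genes) and 5 in posterior brain (against 13.6% of all genes; median 0.17). GABRA5 had 204, 214 and 226.6 CPM in anterior libraries, against 56.4, 47.8 and 49.5 CPM in posterior libraries (log2 fold change 2.07, standard error 0.15, FDR = 3.76e-09). gabra2a had 19.2, 17.5 and 21.7 CPM in anterior libraries, against 6.26, 1.82 and 0.298 CPM in posterior libraries (log2 fold change 2.80, standard error 0.60, FDR = 0.00141), with posterior libraries that spread widely. On the posterior side GLRA1, the adult glycine receptor of brainstem and spinal cord, had 18.8, 30.4 and 29.2 CPM in anterior libraries, against 84.7, 77.0 and 80.2 CPM in posterior libraries (log2 fold change -1.62, standard error 0.22, FDR = 1.23e-05), and GLRA2, known as the fetal subunit in mammals, was on the anterior side: it had 15.02, 23.5 and 30.8 CPM in anterior libraries, against 4.09, 7.84 and 8.05 CPM in posterior libraries (log2 fold change 1.79, standard error 0.40, FDR = 0.00209). The retinal-type GABA receptor GABRR1 (ENSDARG00000043902) had 0.235, 0.318 and 0 CPM in anterior libraries, against 5.99, 8.03 and 13.7 CPM in posterior libraries, a ratio of 44.6 (interval 14.9 to 219).

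Of the potassium channels, 18 of 61 tested genes were higher in anterior (29.5%, against 13.7% of all genes) and 7 in posterior brain (11.5%, against 13.6%), 12 and 7 with actb1 scaling (median 0.13 with TMM). KCNT1 (ENSDARG00000079484), a sodium-activated channel, had 137, 154 and 170.0 CPM in anterior libraries, against 26.4, 37.6 and 36.7 CPM in posterior libraries (log2 fold change 2.19, standard error 0.18, FDR = 2.63e-08). kcnn3, a calcium-activated channel, had 159, 173 and 186 CPM in anterior libraries, against 49.0, 38.1 and 38.4 CPM in posterior libraries (log2 fold change 2.05, standard error 0.16, FDR = 1.92e-08), whereas its relative KCNN2 had a log2 fold change of -1.83, a call that was lost when all 18 libraries were fitted together (FDR = 0.0831). kcnc3a, the fast Kv3.3 channel of cerebellum and brainstem, had 28.2, 15.9 and 18.3 CPM in anterior libraries, against 139, 164 and 109.7 CPM in posterior libraries (log2 fold change -2.74, standard error 0.22, FDR = 2.39e-08). Calcium-binding proteins were higher in posterior brain for 11 of 15 tested genes (73.3%, against 13.6% of all genes). In anterior brain 2 were higher (13.3%, near the 13.7% of all genes), with a median of -1.39 over the list. CALB2, calretinin, had 29.8, 12.4 and 19.2 CPM in anterior libraries, against 168, 139.7 and 160.0 CPM in posterior libraries (log2 fold change -2.95, standard error 0.24, FDR = 2.17e-08). calb2b had 1.88, 4.29 and 11.4 CPM in anterior libraries, against 39.8, 44.5 and 50.4 CPM in posterior libraries (log2 fold change -2.94, standard error 0.42, FDR = 2.76e-05), and vsnl1b, hpca and CALB1 were on the same side, with log2 fold changes of -1.02, -1.39 and -1.96. Of the 2 higher in anterior brain, HPCAL1 passed under each alternative run, and had 58.7, 54.8 and 57.3 CPM in anterior libraries, against 11.4, 13.3 and 6.26 CPM in posterior libraries (log2 fold change 2.44, standard error 0.28, FDR = 2.09e-06), while ncaldb, the other one, lost its call with actb1 scaling and without anterior or posterior replicate 2 (FDR = 0.0715 to 0.0904).

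Myelin genes differed together. Of 22 tested genes of the oligodendrocyte list, 19 were higher in posterior brain (86.4%, against 13.6% of all genes) and 1, GPR37, in anterior brain (4.55%, against 13.7%). The median was -2.35, and the sum of the 22 genes was 1162 to 1240.1 CPM in anterior libraries, against 10626 to 12286 CPM in posterior libraries. Besides mbpa and plp1b, zwi had 4.93, 9.54 and 11.7 CPM in anterior libraries, against 226.6, 206 and 192 CPM in posterior libraries (log2 fold change -4.56, standard error 0.23, FDR = 2.70e-11). cldnk, a claudin of zebrafish myelin, had 5.397, 0.795 and 2.51 CPM in anterior libraries, against 93.7, 117 and 111 CPM in posterior libraries (log2 fold change -5.29, standard error 0.37, FDR = 2.55e-09). Both of these were low in anterior brain. Regulators of the lineage were apart by less than zwi and cldnk. SOX10 had 13.8, 13.7 and 11.9 CPM in anterior libraries, against 49.3, 47.06 and 47.7 CPM in posterior libraries (log2 fold change -1.87, standard error 0.25, FDR = 1.30e-05), and OLIG2 had 18.1, 18.6 and 18.5 CPM in anterior libraries, against 70.0, 74.6 and 75.1 CPM in posterior libraries (log2 fold change -1.99, standard error 0.21, FDR = 6.60e-07). MYRF, which switches on myelin genes, was apart by about as much as plp1b. It had 7.27, 5.88 and 7.54 CPM in anterior libraries, against 61.8, 88.1 and 79.6 CPM in posterior libraries (log2 fold change -3.48, standard error 0.26, FDR = 5.94e-09). olig1, at 10.6, 14.3 and 8.22 CPM in anterior and 11.2, 13.7 and 11.3 CPM in posterior libraries, did not pass (FDR = 0.856), nor did cnp (FDR = 0.649). GPR37, a receptor of oligodendrocytes and neurons, had 127, 156 and 168 CPM in anterior libraries, against 37.9, 48.2 and 35.2 CPM in posterior libraries (log2 fold change 1.89, standard error 0.18, FDR = 1.66e-07). The medium neurofilament genes nefma and nefmb, of large axons, were higher in posterior brain too. nefma had 27.9, 20.7 and 21.0 CPM in anterior libraries, against 907, 833 and 825 CPM in posterior libraries (log2 fold change -5.21, standard error 0.15, FDR = 1.78e-14).

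Glia other than oligodendrocytes gave mixed counts. Of 24 tested radial glia and astroglia genes, 4 were higher in anterior brain (16.7%, near the 13.7% of all genes) and 8 in posterior brain (33.3%, against 13.6%; median -0.43). SLC1A3 (ENSDARG00000043148), a glial glutamate transporter, had 603, 475 and 398 CPM in anterior libraries, against 189, 186 and 203 CPM in posterior libraries (log2 fold change 1.35, standard error 0.14, FDR = 5.87e-07). GJA1, connexin 43, had 857, 777 and 688 CPM in anterior libraries, against 1274, 1414 and 1310.5 CPM in posterior libraries (log2 fold change -0.78, standard error 0.11, FDR = 1.21e-05). ID1 had 108, 82.8 and 82.2 CPM in anterior libraries, against 222, 221 and 209 CPM in posterior libraries (log2 fold change -1.26, standard error 0.15, FDR = 2.16e-06), and SOX9 had a log2 fold change of -1.13. With actb1 scaling 2 were higher in anterior brain, and without anterior replicate 2 or 3 or posterior replicate 1 the number higher in posterior brain was 5, 4 and 4. Microglia and macrophage genes were higher in posterior brain for 6 of 23 tested (26.1%, against 13.6% of all genes) and in anterior brain for 0 (median -0.72). cd74a, the MHC class II invariant chain, had 376, 352 and 355 CPM in anterior libraries, against 1250.4, 833 and 836 CPM in posterior libraries (log2 fold change -1.43, standard error 0.14, FDR = 2.49e-07). apoc1 had 192, 155 and 166 CPM in anterior libraries, against 544, 436 and 436 CPM in posterior libraries (log2 fold change -1.47, standard error 0.13, FDR = 9.15e-08), CORO1A had 17.8, 8.90 and 8.45 CPM in anterior libraries, against 57.7, 25.5 and 35.5 CPM in posterior libraries (log2 fold change -1.76, standard error 0.36, FDR = 9.21e-04), and most of the list did not pass. Vessel, blood and meningeal genes were higher in posterior brain for 4 of 17 (23.5%, against 13.6% of all genes) and in anterior brain for 1, SLC2A1. SLC2A1 lost its call without anterior replicate 2 or 3 or posterior replicate 1 and with actb1 scaling (FDR = 0.109 to 0.23). The same was so with all 18 libraries fitted together (FDR = 0.0625). The haemoglobin gene hbaa1 had 67.6, 23.8 and 24.7 CPM in anterior libraries, against 168, 96.7 and 82.3 CPM in posterior libraries (log2 fold change -1.59, standard error 0.33, FDR = 9.86e-04).

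Most ribosomal protein genes were higher in posterior brain. Of 79 tested, 73 were higher in posterior brain (92.4%, against 13.6% of all genes) and 0 in anterior brain. The median log2 fold change was -1.09, and 71 to 73 were called when any 1 library was left out. RPS25 had 143, 181 and 141 CPM in anterior libraries, against 662, 543 and 492 CPM in posterior libraries (log2 fold change -1.87, standard error 0.14, FDR = 7.98e-09). RPL23A had 206, 262 and 211 CPM in anterior libraries, against 768, 606 and 614 CPM in posterior libraries (log2 fold change -1.55, standard error 0.13, FDR = 4.07e-08). In both the lowest posterior library lay above the highest anterior one. The sum over these 79 genes was 13792 to 16001 CPM in anterior libraries, against 29083 to 35941 CPM in posterior libraries. The 6 that did not pass included RPS24, at 123, 127 and 114 CPM in anterior and 121, 97.9 and 77.5 CPM in posterior libraries. With actb1 scaling 73 were called as well.

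Most genes of dividing cells and of steroid action did not pass, as was so for most genes tested. Of 21 tested progenitor and cell cycle genes, 2 were higher in anterior brain and 2 in posterior brain (9.52% each, against 13.7% and 13.6% of all genes; median 0.01), and the first became 1 without anterior replicate 1 or posterior replicate 2 or 3 and with actb1 scaling, and the second became 1 without any library but anterior replicate 1. mcm7, of DNA replication, had 51.2, 65.3 and 81.8 CPM in anterior libraries, against 106, 136 and 138 CPM in posterior libraries (log2 fold change -0.94, standard error 0.18, FDR = 6.84e-04), the only one of these 4 that passed under each alternative run. Of 10 tested steroid hormone genes and receptors, 0 passed edgeR's quasi-likelihood test in either direction, against 27.3% of all genes. Likewise 0 had an unadjusted p under 0.05 in it, and 0 passed by edgeR's exact test or by DESeq2. The glucocorticoid receptor NR3C1 had 136, 137 and 120.4 CPM in anterior libraries, against 112, 98.9 and 118.6 CPM in posterior libraries (log2 fold change 0.26, standard error 0.15, FDR = 0.213).

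Immediate early genes, which neurons switch on with activity, were higher in anterior brain for 10 of 27 tested (37.0%, against 13.7% of all genes) and in posterior brain for 2 (7.41%, against 13.6%; median 0.21), and for 6 and 2 with actb1 scaling. FOSL2 had 95.5, 128 and 147 CPM in anterior libraries, against 25.6, 29.0 and 21.8 CPM in posterior libraries (log2 fold change 2.27, standard error 0.20, FDR = 7.82e-08). HOMER1 had 245, 248 and 239.9 CPM in anterior libraries, against 88.0, 80.1 and 84.6 CPM in posterior libraries (log2 fold change 1.54, standard error 0.13, FDR = 5.28e-08). egr1 had 359, 448 and 419 CPM in anterior libraries, against 155, 237 and 226 CPM in posterior libraries (log2 fold change 0.99, standard error 0.15, FDR = 5.07e-05). JUN differed from these and had 26.0, 13.7 and 15.1 CPM in anterior libraries, against 128, 90.5 and 90.9 CPM in posterior libraries (log2 fold change -2.51, standard error 0.25, FDR = 2.96e-07).

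Clock genes were measured at 1 time of day only. Of 37 tested, 5 were higher in anterior brain (13.5%, near the 13.7% of all genes) and 11 in posterior brain (29.7%, against 13.6% of all genes), with a median of -0.35. The PAR bZIP factors carry the clock to its outputs: tefa had 98.1, 84.5 and 109 CPM in anterior libraries, against 297, 280.2 and 359 CPM in posterior libraries (log2 fold change -1.68, standard error 0.15, FDR = 4.90e-08) and tefb had a log2 fold change of -1.17, whereas dbpb had 105, 128 and 191 CPM in anterior libraries, against 50.9, 49.8 and 54.2 CPM in posterior libraries (log2 fold change 1.46, standard error 0.20, FDR = 1.46e-05) and dbpa had one of 1.06. The light-responsive genes PER2 and cry4 were counted in both parts and were higher in posterior brain. PER2 had 108, 146 and 126 CPM in anterior libraries, against 158, 247 and 289 CPM in posterior libraries (log2 fold change -0.87, standard error 0.18, FDR = 0.00132). cry4 had 12.202, 6.52 and 6.17 CPM in anterior libraries, against 46.6, 51.4 and 46.2 CPM in posterior libraries (log2 fold change -2.54, standard error 0.31, FDR = 3.28e-06). The 5 higher in anterior brain became 3 without anterior replicate 3 or posterior replicate 1 and with actb1 scaling. Of the 5 melanopsin genes only opn4xa had enough counts to be tested, and it had 6.81, 6.67 and 3.88 CPM in anterior libraries, against 0, 1.64 and 0.298 CPM in posterior libraries (log2 fold change 2.97, standard error 0.98, FDR = 0.0292). Its call was lost when any library but posterior replicate 2 was left out (FDR = 0.0511 to 0.115), and with all 18 libraries fitted together (FDR = 0.0722).

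Genes with names alike but for a final a or b gave 334 pairs, matched by name only, so that distinct genes such as eif5a and eif5b, flna and flnb or chga and chgb stand among the duplicates. Both members were called in the same direction in 42 pairs (12.6%) and in opposite directions in 14 (4.19%), 1 was called in 120 and neither in 158. From the shares of all genes called in each direction, 13.7% and 13.6%, independent calls of both members would give 3.72% for either outcome, so the share of opposite pairs was near the background and is no result about duplicates. atp1a3a and atp1a3b, the neuronal sodium pump, are an example: atp1a3a had 2841, 3311 and 3172 CPM in anterior libraries, against 1522, 1281 and 1296 CPM in posterior libraries (log2 fold change 1.19, standard error 0.10, FDR = 2.58e-08), and atp1a3b had 458, 751 and 436 CPM in anterior libraries, against 1693, 1614 and 1386 CPM in posterior libraries (log2 fold change -1.51, standard error 0.16, FDR = 6.57e-07). For ccdc136a and ccdc136b the log2 fold changes were 1.04 and -1.35, for cspg5a and cspg5b, a neural proteoglycan, 1.63 and -0.71, and for srpk1a and srpk1b -0.89 and 0.85, where srpk1b lost its call with actb1 scaling (FDR = 0.0531) and cspg5b when all 18 libraries were fitted together (FDR = 0.131). prrt4a was at -3.91 and prrt4b at 1.17, and the complement genes c7a and c7b at 1.98 and -2.75. With 1 library left out 8 to 12 pairs were opposite, with the fewest, 8, without anterior replicate 2 or 3 and 9 without anterior replicate 1 or posterior replicate 2. The chromogranin gene chgb had 9.62, 3.18 and 4.34 CPM in anterior libraries, against 105, 125 and 143 CPM in posterior libraries (log2 fold change -4.48, standard error 0.30, FDR = 1.63e-09).

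Pairs of identifiers that share 1 name, counted after the values had been seen, gave 1025 pairs, of which 112 (10.9%) were called in the same and 57 (5.56%) in opposite directions, beside the same 3.72%. Leaving out 1 library gave 35 to 51 opposite pairs, with 35 without posterior replicate 2, and actb1 scaling gave 33. GRIA2 is an example chosen after its values were seen, with 1.41 for ENSDARG00000052765 and -0.39 for ENSDARG00000070173, a call that was lost without anterior replicate 1 or 3 or posterior replicate 2 (FDR = 0.0746, 0.0601 and 0.0784) with actb1 scaling (FDR = 0.0952) and with all 18 libraries fitted together (FDR = 0.256). GRIN1 was one more, with -0.51 for ENSDARG00000025728 and 0.33 for ENSDARG00000027828, which lost its call with actb1 scaling (0.18, FDR = 0.597).

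The contrast was measured a second time in opn4 dko fish, from separate pools of the same layout. Lanes followed the scheme of the WT libraries, with anterior replicates 2 and 3 on lane 5 and posterior replicates 2 and 3 on lane 4. Agreement between the genotypes therefore cannot separate part from lane in those replicates. In the opn4 dko pools, 4795 of 15779 genes were called, which is 30.4%. Of the 4158 genes called in WT that were also tested in opn4 dko, 4111 (98.9%) had the same direction, and 3243 were called in it. Those 3243 are 77.2% of the WT calls and 67.6% of the opn4 dko calls. Genes called in the other direction numbered 4: tph2, tph1a, ddc and rbp4, a retinol carrier. TBR1 and mbpa had log2 fold changes of 6.81 and -4.57 in opn4 dko, against 5.44 and -4.84 in WT.

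The test of the difference between these contrasts called 1 of 16848 genes (0.00594%), with 738 at an unadjusted p under 0.05. The gene was tph2. Its counts were 129, 81 and 33 in anterior and 20, 23 and 14 in posterior libraries of opn4 dko, against 1, 0 and 0 in anterior and 23, 13 and 16 in posterior libraries of WT. The counts of the genotypes thus overlapped in posterior libraries and not in anterior ones. The difference of log2 fold changes, opn4 dko minus WT, was 7.30 (FDR = 0.0244). For ddc and tph1a it was 3.08 and 4.46 (FDR = 0.101 and 0.162). In anterior libraries, counts of asmt moved with these genes, at 536, 281 and 158 in opn4 dko, against the few given above for WT. In posterior libraries asmt had 7, 135 and 42 counts in opn4 dko, against 2, 1 and 0 in WT, whereas those of tph2 overlapped. The part of pineal tissue in the tph2 result was not tested. The number of genes called was 0 to 6 when any 1 of the 12 libraries was left out, and 0 without anterior WT replicate 3, posterior WT replicate 3, anterior opn4 dko replicate 1 or 2, or posterior opn4 dko replicate 3. It was 6 without anterior opn4 dko replicate 3, 4 without posterior opn4 dko replicate 2, 3 without posterior opn4 dko replicate 1 or anterior WT replicate 1, and 2 without posterior WT replicate 1 or 2.

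**Figure D4:**
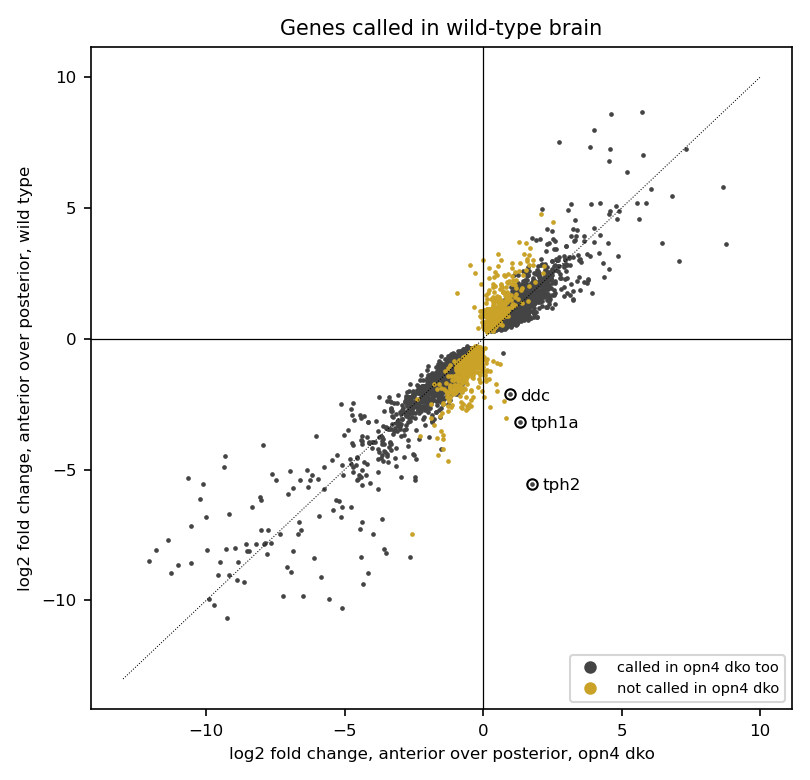
Log2 fold changes, anterior over posterior, of the genes called in WT brain and tested in opn4 dko brain, with opn4 dko on the horizontal and WT on the vertical axis (dotted line: equal values). Of 4158 genes 4111 lie in the quadrants of equal sign; tph2, tph1a and ddc, ringed, lie below the horizontal line and to the right of the vertical one.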

How the data were processed

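The RNA of 18 pooled tissue samples (6 groups of 3 pools) had been sequenced by the authors as strand-specific reads of 100 bp, and the table used here holds their deposited raw counts per gene. Per the submitters' processing notes, featureCounts, edgeR 3.9 and the GRCz10 genome were used. The deposited commands name HISAT as the mapper and the paper's methods NextGenMap, and which of them made the table could not be told. Counts were taken by strand over whole gene bodies of Ensembl release 86 from reads with a mapping quality of at least 20, so that intronic reads are included and near-identical copies can lose reads to each other.

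From these counts the anterior and posterior WT libraries were compared with edgeR 4.0.16 (R 4.3.3): filterByExpr (minimum count 10, minimum total 15), TMM scaling, and its quasi-likelihood test with Benjamini-Hochberg adjustment (cutoff 0.05). Fitted fold changes used a prior count of 0.125. Standard errors were derived from the log2 fold change and its F statistic (absolute value over root F). The opn4 dko contrast and the difference between contrasts were fitted likewise, the last over all 12 brain libraries. Scripts were tested on simulated data. The pools are separate samples by label, but nothing says how the fish were assigned, and p-values measure the spread between pools only.

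Names were found for 26159 of 31624 identifiers (82.7%), 309 of them from the paper. Genes named in the text were, per rule: the 15 largest fold changes in each direction that reached 10 counts or more in every library of the higher part, without overlap; the 10 largest CPM differences; up to 6 called members per list and direction; the part markers; 6 paralogue pairs; and interaction calls. Further genes were named after their values were seen, among them gnrh3, PENK, npvf, BARHL1, barhl1a, chgb, CRH, oxt, vgf, SOX10, MYRF, OLIG2, olig1, cnp, nefma, skor2, RPS24 and TH. Some genes that met these rules are not reported here. Members and lists were chosen with earlier results of these data known. Alternatives were other tests (edgeR's exact test, DESeq2 1.42.0), scalings, filters, cutoffs, sets of libraries, a replicate block and leaving out each library; a lane 6 covariate was added after the data had been seen. No genome of the build was used here, and no coordinates or sequences are given.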

Additional observations from a re-analysis of the deposited data

Results flagged for a closer look

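The difference between parts was itself different between genotypes for 1 gene, tph2, the neuronal tryptophan hydroxylase. The interaction, opn4 dko minus WT, was 7.30 on the log2 scale (standard error 1.16, FDR = 0.0244 in edgeR's quasi-likelihood test across 16848 genes). Anterior over posterior, opn4 dko brain gave 1.76 on the log2 scale (standard error 0.48, FDR = 0.00947), with 129, 81 and 33 counts in anterior and 20, 23 and 14 in posterior libraries. In WT brain the counts were 1, 0 and 0 in anterior and 23, 13 and 16 in posterior libraries. With 1 count over the WT anterior libraries, the size of the interaction is poorly known. The number of genes called was 0 without anterior WT replicate 3, posterior WT replicate 3, anterior opn4 dko replicate 1 or 2, or posterior opn4 dko replicate 3. Summed counts of the 42 pineal list genes moved with it, at 9163, 4847 and 2720 in anterior libraries of opn4 dko, against 268, 402 and 350 in anterior libraries of WT, and their part in the result was not tested.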

How the results depend on the processing

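The number of genes called in WT brain, 4202, was 3436 to 3771 with 1 library left out. Of 268 named genes called, 226 kept their direction and call under each of the 19 alternative fits that tested them, 42 lost the call in at least 1 and 0 reversed. Many of these genes were chosen for a large fold change or a small FDR, and the fits reuse the same libraries. The numbers therefore do not carry over to all 4202 genes called. Genes below 10 counts in any library were not in the fit that asked for 10 counts in every library, so that fit says nothing about them. With a change of at least 2-fold required, 2287 were called, 1080 higher in anterior and 1207 higher in posterior brain. With actb1 scaling 1116 were higher in anterior brain, and with an FDR cutoff of 0.01, 1375 were higher in posterior brain. The interaction call was 0 with at least 10 counts in every library and 0 to 6 with 1 library left out. Pairs with names alike but for a final a or b called in opposite directions, 14, were 7 with actb1 scaling, 6 with all 18 libraries fitted together, 5 with 2-fold required and 8 to 12 with 1 library left out. With the replicate number as a block (replicate block) 4711 genes were called, 4167 of them shared with the fit without it, and oxt passed with it (-1.23, FDR = 0.00626). The labels give no pairing: deviations of libraries with the same number correlated by 0.115, 0.0434 and 0.0406, at most 0.0153 for unlike numbers, and all 6 libraries correlated best with their own number. Depth limits low genes, since 3 counts correspond to 0.465 to 0.903 CPM.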
